A study of Mus musculus with 6 samples.

Results

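The MHC class I pathway and the immunoproteasome were followed through 10 genes in cardiomyocyte RNA from mice given doxorubicin or vehicle. The genes were taken by name: the class I heavy chains H2-D1 and H2-K1, their light chain B2m, the peptide loading genes Tap1, Tap2 and Tapbp, the immunoproteasome subunits Psmb8, Psmb9 and Psmb10, and the regulator Nlrc5. All 10 were present among the 24972 gene rows of the table, and all 10 passed the minimum mean of 10 that left 12477 genes for testing.

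Every mouse carried the MX1gfp genotype, a reporter strain of the Jackson Laboratory, in both groups. In the vehicle group, 3 mice received sterile phosphate-buffered saline, and in the doxorubicin group 3 mice received doxorubicin, an anthracycline cancer drug that acts on topoisomerase II and is toxic to the heart, at 25 mg per kg body weight. Each was a single intraperitoneal injection of 100 microlitres, and hearts were taken after 48 hours. Ventricles were digested with collagenase and myocytes were allowed to settle by gravity, an enrichment that does not sort cells, and the labels give neither sex, age nor batch. The design gives 3 mice a group, so the tests measure the spread between 3 mice a group.

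Class I molecules display peptides from inside a cell to CD8+ T cells. The proteasome cuts proteins into peptides, the TAP1 and TAP2 transporter carries them into the endoplasmic reticulum, tapasin (Tapbp) holds the empty heavy chain beside the transporter, and beta-2 microglobulin (B2m) completes the molecule. The immunoproteasome is a form of the 20S core in which the catalytic subunits encoded by Psmb5, Psmb6 and Psmb7 are replaced by those encoded by Psmb8, Psmb9 and Psmb10. Interferons raise most of these genes in many cell types, Nlrc5 is a transactivator of class I genes, and resting cardiomyocytes are known for low class I display.

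The stretches of DNA before the genes that differed most, and the single stretch shared by Psmb9 and Tap1, are shown with the matches to short motifs that were sought in them. They are RefSeq sequences of GRCm38.p6, written 5′ to 3′ on the strand of the gene (for the shared stretch, the strand of Tap1), with motif matches in capitals. B2m lies on chromosome 2, and the printed bases before its start are chr2:122147437-122147686 on the plus strand. H2-K1 and H2-D1 lie apart in the H2 region of chromosome 17. The H2-K1 stretch is chr17:34000334-34000583 on the minus strand, before the later of 2 listed starts. The listed extent of the H2-K1 gene, chr17:33996012-34000619, contains that stretch. The H2-D1 stretch is chr17:35262844-35263093 on the plus strand. Psmb9 and Tap1 run away from each other, and the 225 bases between their starts are chr17:34187331-34187555.
B2m: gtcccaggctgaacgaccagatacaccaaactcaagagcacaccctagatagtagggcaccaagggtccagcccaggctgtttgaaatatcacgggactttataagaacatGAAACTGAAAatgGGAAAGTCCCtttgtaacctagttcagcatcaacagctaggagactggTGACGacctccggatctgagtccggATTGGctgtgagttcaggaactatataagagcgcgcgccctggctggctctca
H2-K1: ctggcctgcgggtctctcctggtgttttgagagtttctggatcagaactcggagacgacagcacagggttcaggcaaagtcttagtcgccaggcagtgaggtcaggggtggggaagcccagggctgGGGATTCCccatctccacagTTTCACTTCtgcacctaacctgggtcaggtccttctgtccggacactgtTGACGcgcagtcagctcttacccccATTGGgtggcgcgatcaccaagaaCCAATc
H2-D1: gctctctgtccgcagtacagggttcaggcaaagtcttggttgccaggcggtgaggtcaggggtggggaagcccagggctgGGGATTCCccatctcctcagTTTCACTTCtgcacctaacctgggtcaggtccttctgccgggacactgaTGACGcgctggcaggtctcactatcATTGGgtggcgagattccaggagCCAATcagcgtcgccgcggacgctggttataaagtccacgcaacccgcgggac
Psmb9-Tap1: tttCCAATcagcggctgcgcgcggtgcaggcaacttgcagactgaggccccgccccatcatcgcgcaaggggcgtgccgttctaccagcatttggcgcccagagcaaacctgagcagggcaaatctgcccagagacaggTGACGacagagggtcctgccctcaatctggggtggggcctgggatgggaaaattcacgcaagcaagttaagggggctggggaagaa
Matches were sought on both strands of windows from 250 bases before to 50 bases after a start. Of the 10 genes, 8 had windows in the promoter table and Tap2 and Nlrc5 had none. CCAAT, the Y box, was found in 6 of the 8 (Psmb9, Tap1, Tapbp, B2m, H2-D1 and H2-K1) and in 37.4% of 32851 windows. TGACG, which resembles the X2 box, was found in 5 of the 8 (Psmb9, Tap1, B2m, H2-D1 and H2-K1) and in 20.8% of windows. The windows of Psmb9 and Tap1 overlap, and the same CCAAT and the same TGACG were counted for both. These counts are therefore not of independent promoters. In B2m, H2-K1 and H2-D1 the first base of TGACG stood 25 bases before the first base of ATTGG, the reverse complement of CCAAT. That pair at that spacing, sought after the sequences were seen, was found in 31 windows of 27 genes, or 0.0944% of windows, and H2-M3 was another of the 27.
The core of the interferon-stimulated response element, written as GAAA, any 2 bases and GAAA, was found in B2m only, 139 bases before its start, and in 3.44% of windows. A form of the NF-kappaB site, GGG with any 2 bases and then TTTCC, was also found in B2m only, against 1.63% of windows. The gamma-activated site TTCNNNGAA was found in Psmb8 only, 97 bases before its start, against 8.30% of windows. Another spacing of the interferon element, GAANNGAAA, and the NF-kappaB site GGGATTCC were added after the sequences were seen. Both were found in H2-K1 and H2-D1, against 7.52% and 1.06% of windows. The H2-K1 and H2-D1 stretches had 180 identical bases among 203 aligned, or 88.7%. Matches are descriptions of these letters, and binding was not measured.

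The values are the authors' normalized read counts per gene. They summed to between 5410780 and 7500386 per library, and the reads behind them, estimated from the spacing of low values, numbered about 7710000 to 11400000 in vehicle and 3670000 to 6170000 in doxorubicin libraries. Every doxorubicin library was shallower than every vehicle library, so depth and treatment cannot be told apart, but the lowest value of any of the 10 genes rested on about 49 reads. Vehicle replicates 1 and 2 and doxorubicin replicate 2 carried Y-linked transcripts, and vehicle replicate 3 and doxorubicin replicates 1 and 3 carried Xist, so the mice were of both sexes in each group. Doxorubicin replicate 1 stood apart from the other doxorubicin libraries: its cardiomyocyte markers had a median difference from the vehicle mean of -0.43 on the log2 scale, against -1.85 and -2.12 in replicates 2 and 3. Its erythroid markers summed to 8852, against 249.8 and 421 in those replicates and 1173 to 1999 in vehicle, and its atrial markers to 1431, against 368 and 708 and 456 to 526. Results that rest on it are given with and without it.

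In bulk RNA of these unsorted cells 9 of the 10 genes were higher in all 3 doxorubicin libraries than in any vehicle library. Psmb10 was the exception. Fitted folds of the 9 ran from 1.53 (Tap2) to 2.55 (H2-D1). Among all tested genes 2401, or 19.2%, were higher without overlap and 2820, or 22.6%, were lower. No gene of the 12477 passed an adjusted p of 0.05 in limma with Benjamini-Hochberg adjustment (0.0%), so none of the 10 did. At an unadjusted p under 0.05, 8 of the 10 were higher, against 16.7% of tested genes (2081). The smallest adjusted p of that fit, 0.0859, was a tied value, so it does not rank the genes that carry it. It was shared by 8 of the 10 and by genes outside them, some of them lower, such as Psme4 and Nfyc. In the same fit 1383 genes were higher and 1639 lower at an adjusted p under 0.10. Nlrc5 had 0.154 and Psmb10 0.620.

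Without doxorubicin replicate 1, limma called 2409 genes higher (19.3%) and 2718 lower, and 8 of the 10 genes were among those called higher. Their adjusted p-values then ran from 0.000471 for H2-D1 to 0.0187 for Tap2, with Nlrc5 at 0.0943 and Psmb10 at 0.436. Leaving out any other library called none of the 10. The call therefore depended on that library, and also on weighting and threshold. With all libraries kept, library weights called 8 of the 10, beside 1954 genes higher and 2318 lower. A threshold of 0.10 called 8 as well, beside 1383 and 1639. The median log2 fold change of the 10 was 0.94 with all libraries, 1.05 without doxorubicin replicate 1 and 0.69 without doxorubicin replicate 3, beside -0.0046 over all tested genes with all libraries.

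Scaling every library to an equal total moved the median of all genes to 0.29 and raised the genes higher without overlap to 4584 (36.7%), while 1258 were lower. Under that scaling 9 of the 10 genes again stood higher without overlap, and the median of the 10 was 1.24. Psmb10 then had a log2 fold change of 0.17, above 0 but below the median of all genes. The 10 genes together made up 0.103%, 0.103% and 0.0875% of the total in the 3 vehicle mice and 0.168%, 0.270% and 0.403% in doxorubicin replicates 1 to 3.

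**Figure D1:**
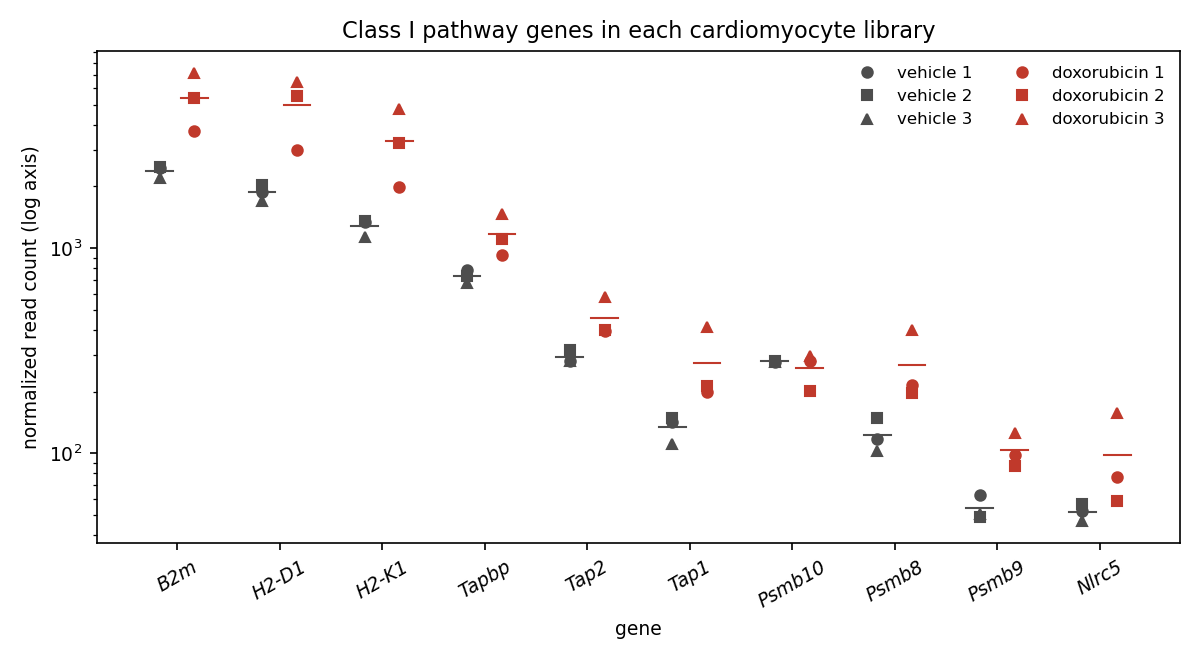
Normalized read counts (log axis) of the 10 genes in each library; grey symbols are vehicle, red symbols doxorubicin, the shape gives the replicate and the lines are group means of 3 libraries. For 9 genes all doxorubicin symbols lie above all vehicle symbols, and for Psmb10 the groups overlap.

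The genes of the class I molecule itself had the largest fitted fold changes of the set, though Psmb8 lay within an SE of them. Values are given in order of replicate number. B2m, the light chain, had 2462, 2480.0 and 2191 in the 3 vehicle mice and 3703, 5362 and 7127 in doxorubicin mice 1 to 3. The fitted difference in limma was 1.13 log2 units (SE 0.26, n = 3 against 3, adjusted p 0.0859). The groups were well separated, and the lowest doxorubicin value was replicate 1.
H2-D1, which encodes a classical class I heavy chain, had 1878, 2040.5 and 1688 in vehicle and 3018, 5517 and 6455 in doxorubicin mice 1 to 3. The fitted difference in limma was 1.35 log2 units (SE 0.30, adjusted p 0.0859), the largest of the 10. H2-K1, the other classical heavy chain, had 1339, 1362 and 1134 in vehicle and 1977, 3269 and 4756 in doxorubicin mice 1 to 3. The fitted difference in limma was 1.30 log2 units (SE 0.31, adjusted p 0.0859). In all 3 genes of the class I molecule doxorubicin replicate 1 was the lowest of its group and replicate 3 the highest, with no overlap with vehicle. The H2 heavy chains share much of their sequence, and how reads that fit several of them were assigned is not given in the sources used here, so values of single heavy chains are uncertain.

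Per kilobase of transcript, B2m was the most abundant of the 10 in both groups, with a mean level of 2764 in vehicle and 6276 in doxorubicin. H2-D1 followed at 889 and 2377, and H2-K1 at 789 and 2059. In each vehicle library H2-D1 per kilobase lay above H2-K1, as it did in each doxorubicin library, but the ranges of the libraries overlapped within each group, from 803 to 971 for H2-D1 and from 700.5 to 841 for H2-K1 in vehicle. Below them stood Tapbp (252 and 402), Psmb10 (214 and 199), Tap2 (85.4 and 133), Psmb8 (75.5 and 166), Tap1 (45.4 and 93.3), Psmb9 (40.1 and 76.9) and Nlrc5 (6.86 and 12.9). Tap2 and Psmb8 had overlapping ranges in vehicle, as had Tap1 and Psmb9. Nlrc5 was the lowest in every library.

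The peptide loading genes had log2 fold changes between 0.62 and 0.96. Tap1, a subunit of the peptide transporter, had 143, 149 and 110.5 in vehicle and 199, 213 and 414 in doxorubicin mice 1 to 3, which limma fitted as a log2 difference of 0.96 (SE 0.29, adjusted p 0.0859). Its partner Tap2 had 281, 321 and 281 in vehicle and 396, 397 and 580.5 in doxorubicin, which limma fitted as a log2 difference of 0.62 (SE 0.19, adjusted p 0.0859). Doxorubicin replicates 1 and 2 were nearly level in both transporter genes, replicate 3 was highest, and without it the log2 difference of Tap1 was 0.63. Tapbp, which encodes tapasin, had 783, 728 and 679 in vehicle and 922, 1109 and 1466 in doxorubicin mice 1 to 3. The fitted difference in limma was 0.65 log2 units (SE 0.20, adjusted p 0.0859), and its groups did not overlap.

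Of the immunoproteasome subunits, 2 were higher without overlap and 1 was not. Psmb8, the inducible chymotrypsin-like subunit, had 118, 149 and 102 in vehicle and 214, 196 and 401 in doxorubicin mice 1 to 3. The fitted difference in limma was 1.07 log2 units (SE 0.29, adjusted p 0.0859). Psmb9, the inducible counterpart of Psmb6, had 62.7, 49.2 and 50.8 in vehicle and 98.6, 87.2 and 126 in doxorubicin, which limma fitted as a log2 difference of 0.92 (SE 0.21, adjusted p 0.0859). In both, doxorubicin replicate 2 was the lowest of its group and still lay above every vehicle library. Psmb10, the inducible counterpart of Psmb7, had 279.9, 283 and 280.2 in vehicle and 280.4, 201 and 299 in doxorubicin replicates 1 to 3. Vehicle libraries were nearly level (SD 1.73), 1 doxorubicin library lay among them, 1 below and 1 above, and the log2 fold change was -0.13 (SE 0.18, limma adjusted p 0.620).

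Nlrc5, the class I transactivator, had 52.2, 56.6 and 47.0 in vehicle and 77.0, 58.8 and 157 in doxorubicin replicates 1 to 3. Doxorubicin replicate 2 lay just above the highest vehicle library, and replicate 3 was far above the others. The log2 fold change was 0.78 (SE 0.35, limma adjusted p 0.154). Leaving out doxorubicin replicate 3 gave 0.37, and leaving out replicate 2 gave 1.07. Under quantile normalization its groups overlapped. Of the 10 genes 8 were then higher without overlap, beside 2233 of the 12477 tested genes.

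The inducible subunits were next set against the constitutive subunits they replace, as a log2 ratio within each library that does not move with the scaling of the library. Psmb8 to Psmb5 was -2.68, -1.97 and -2.70 in the 3 vehicle mice and -1.32, -1.44 and 0.15 in doxorubicin replicates 1 to 3. The ratio was higher in every doxorubicin library, by 1.57 between means of -2.45 ± 0.42 and -0.87 ± 0.88 (SD, n = 3 each; exact two-sided permutation p 0.1). Psmb9 to Psmb6 was -3.86, -4.08 and -3.95 in vehicle and -2.90, -2.997 and -2.08 in doxorubicin, higher by 1.31 (exact permutation p 0.1). Psmb10 to Psmb7 was -2.03, -2.12 and -2.15 in vehicle and -1.75, -1.71 and -0.94 in doxorubicin, higher by 0.64 (exact permutation p 0.1). All 3 ratios separated the groups, that of Psmb10 included. Psmb10 itself overlapped between groups (log2 fold change -0.13), while its denominator Psmb7 was lower (-0.77). How often other pairs of genes separate the groups was not counted. In bulk RNA the transcripts of a pair need not come from the same cells. Adjusted over the 3 ratios each p was 0.1, the smallest that 3 libraries against 3 allow, so no ratio could pass 0.05.

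Per length of transcript, the Psmb8 share of the Psmb8 and Psmb5 pair ran from 7.78% to 12.3% in vehicle and from 16.8% to 37.9% in doxorubicin libraries. The Psmb9 share of its pair ran from 3.30% to 3.84% and from 6.82% to 12.2%, and the Psmb10 share from 16.5% to 17.7% and from 20.8% to 31.5%. The constitutive transcript remained the more abundant of its pair in every library.

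**Figure D2:**
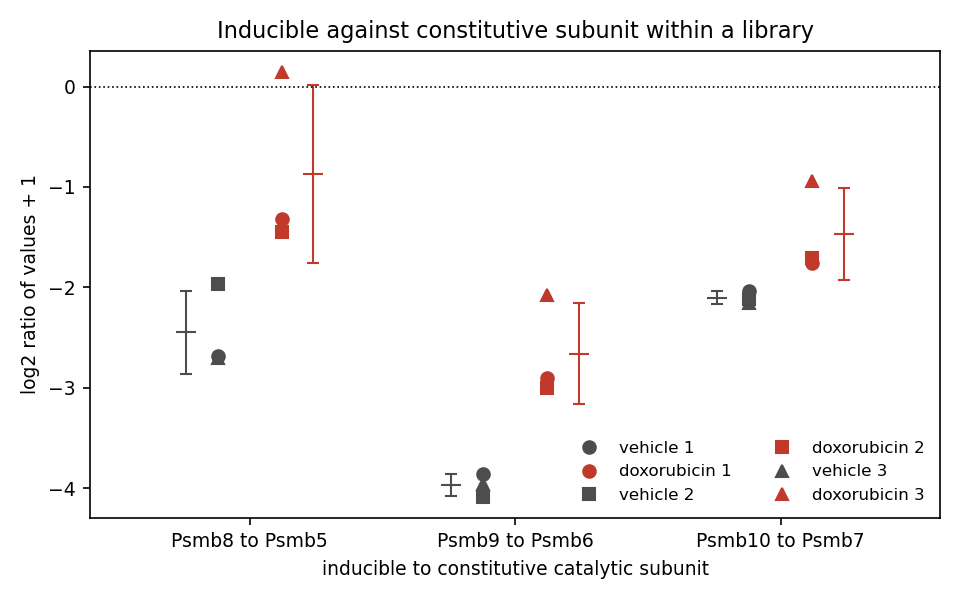
Log2 ratio of each inducible catalytic subunit to its constitutive counterpart within each library (values + 1); points are libraries, and bars beside them give mean ± SD of 3. All doxorubicin points lie above all vehicle points in each pair, with doxorubicin replicate 3 highest.

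The constitutive subunits, the denominators of these ratios, were lower in the doxorubicin libraries. Psmb5 had 761, 585 and 668 in vehicle and 538, 535 and 362 in doxorubicin, which limma fitted as a log2 difference of -0.50 (SE 0.20, adjusted p 0.121). Psmb6 had 925, 849.6 and 801 in vehicle and 745, 703 and 535 in doxorubicin, which limma fitted as a log2 difference of -0.39 (SE 0.17, adjusted p 0.145). Psmb7 had 1148, 1233 and 1250.0 in vehicle and 947, 659 and 576 in doxorubicin, which limma fitted as a log2 difference of -0.77 (SE 0.20, adjusted p 0.0859). All 3 were lower without overlap, where 22.6% of tested genes were, and with equal totals this held for 1 of the 3, Psmb7. Without doxorubicin replicate 1, all 3 passed an adjusted p of 0.05 in limma as lower, beside 2718 of the 12477 tested genes.

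Other subunits of the proteasome core, its assembly factors and its activators were counted next. Of 14 subunits of the 20S core other than the inducible ones, 0 had a positive log2 fold change, 6 were lower without overlap, 8 overlapped and the median was -0.32. Over all tested genes 22.6% were lower without overlap. Without doxorubicin replicate 1, limma called 5 of the 14 lower and 0 higher, beside 2718 and 2409 of the 12477 tested genes. With equal totals 7 of the 14 were above 0 and 7 below, and all 14 were below the median of all genes. Psmb2 had the lowest value among the 11 that are not catalytic partners listed above, at -0.70, and Psma5 the highest, at -0.03, which was 0.27 with equal totals. Among 5 assembly factors Psmg2 had the lowest value, -0.73, and Pomp, the maturation protein of the core, the highest, -0.06, which was 0.24 with equal totals.
Psme1 and Psme2 encode the activator caps known to be induced with the immunoproteasome, and neither had groups that were separate. Psme1 had 968, 862 and 756 in vehicle and 792, 439.7 and 531 in doxorubicin, which limma fitted as a log2 difference of -0.59 (SE 0.23, adjusted p 0.119) with overlapping groups. Psme2 had 424, 352 and 314 in vehicle and 369.6, 308 and 389.7 in doxorubicin. The fitted difference in limma was -0.03 log2 units (SE 0.17, adjusted p 0.923), and 0.27 with equal totals, against a median of all genes of 0.29. Psme3 was at -0.28 (0.03 with equal totals) and Psme4, the PA200 activator, at -0.84 (limma adjusted p 0.0859).

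Of 18 listed class I heavy chains outside the 10 genes, 9 passed the minimum mean and 4 were listed at 0 in every library (H2-Q6, H2-T3, H2-Bl and H2-M9). Of the 9 tested, 7 were higher without overlap, beside 19.2% of all tested genes. H2-Q8 and H2-T9 overlapped, and 0 of the 9 passed an adjusted p of 0.05 in limma with all libraries. The median log2 fold change of the 9 was 1.39. Without doxorubicin replicate 1 limma called 8 of the 9 higher, beside 19.3% of all tested genes. H2-Q7 was the highest, with 39.1, 38.6 and 53.9 in vehicle and 104, 153 and 302 in doxorubicin mice 1 to 3, which limma fitted as a log2 difference of 1.94 (SE 0.38, adjusted p 0.0859). H2-T23, the Qa-1 molecule that presents leader peptides of other class I chains, had 199, 225 and 187 in vehicle and 351, 687.5 and 1001 in doxorubicin, a log2 fold change of 1.61 (SE 0.35). H2-Q4 was at 1.38 (SE 0.33) and H2-M3, which presents formylated peptides, at 1.13 (SE 0.29). H2-T9 was the lowest at -2.14 (SE 1.99): it was listed at 85.3 in vehicle replicate 2 and at 0 in the other 5 libraries.
The more distant class I-like genes had a median log2 fold change of 0.32. Of 4 tested, 0 were higher without overlap on the deposited scale (19.2% of all tested genes were) and 2 with equal totals (36.7% of all tested genes). Without doxorubicin replicate 1, 1 was called higher, beside 19.3% of all tested genes. Fcgrt, the neonatal Fc receptor, was highest at 0.39 (SE 0.17, limma adjusted p 0.140) and Mr1 lowest at -0.16 (SE 0.16, limma adjusted p 0.510), which was 0.14 with equal totals.

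Other genes of peptide loading and trimming were mixed. Tapbpl, which encodes the tapasin relative TAPBPR, had 72.6, 83.0 and 54.0 in vehicle and 95.9, 116 and 166 in doxorubicin, which limma fitted as a log2 difference of 0.83 (SE 0.26, adjusted p 0.0865) with no overlap. The chaperones Calr and Canx were lower without overlap, at -0.33 and -0.46 (limma adjusted p 0.163 and 0.113), though they overlapped with equal totals. Pdia3, the oxidoreductase of the loading complex, was at 0.05, and -0.0012 without vehicle replicate 2. Erap1, the aminopeptidase that trims peptides, was at -0.10, and 0.20 with equal totals. Of these 6 genes 1 was higher and 2 were lower without overlap, beside 19.2% and 22.6% of all tested genes. Their median log2 fold change was -0.11.

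Among 14 regulators of class I genes, 7 were higher and 1 lower without overlap, beside 19.2% and 22.6% of all tested genes. Their median log2 fold change was 0.41. Without doxorubicin replicate 1, limma called 7 higher and 1 lower, beside 2409 and 2718 of the 12477 tested genes. Irf1, an interferon-inducible activator of these promoters, had 284, 236 and 197 in vehicle and 402, 427 and 563 in doxorubicin mice 1 to 3, which limma fitted as a log2 difference of 0.96 (SE 0.20, adjusted p 0.0859), the highest of the list. Rfx5, which binds the X box, was at -0.19 (SE 0.25), and 0.11 with equal totals. Nfyc, a subunit of the factor that binds the Y box, was the lowest of the list at -0.48 (SE 0.14, limma adjusted p 0.0859), while its partner Nfya was at 0.53.

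**Figure D3:**
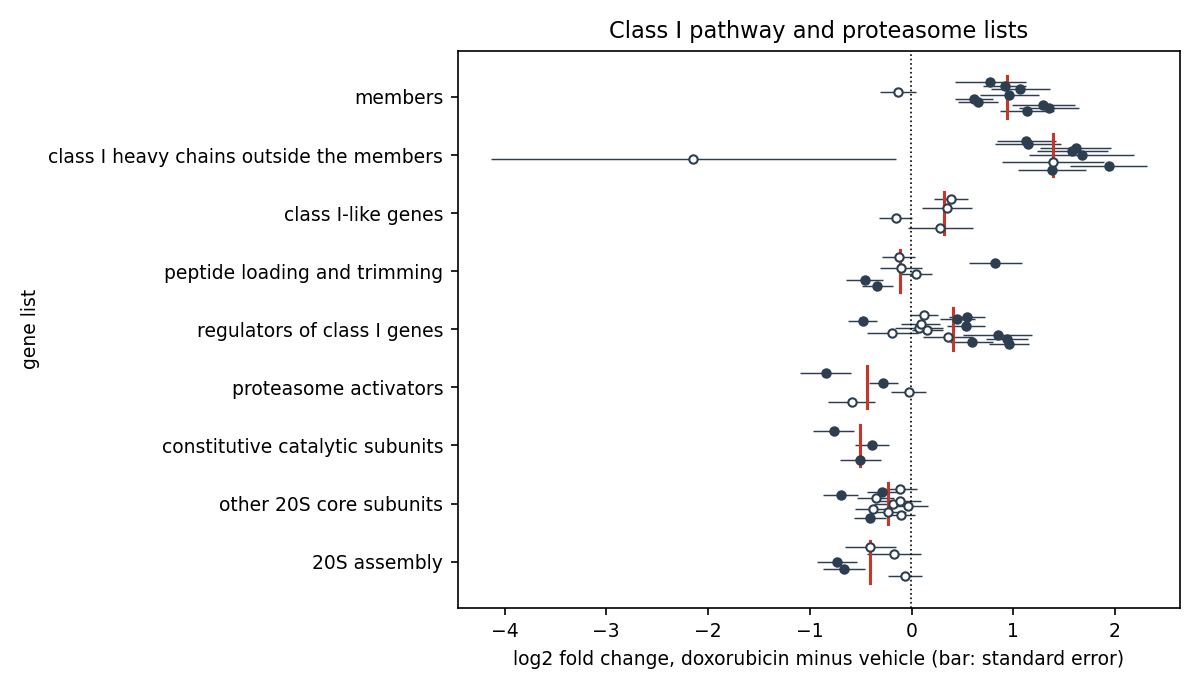
Log2 fold change (doxorubicin minus vehicle) with its standard error for each tested gene of the class I and proteasome lists. Filled points have groups that do not overlap, open points overlap, red bars are list medians and the dotted line is the median of all 12477 tested genes; 9 of the 10 genes are filled and above 0, and all 14 constitutive core subunits lie below 0.

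The doxorubicin libraries differed among themselves, and not alike for all of the 10 genes. Set against the vehicle mean, B2m was higher by 0.64, 1.18 and 1.59 in doxorubicin replicates 1 to 3, H2-D1 by 0.70, 1.57 and 1.79, and H2-K1 by 0.63, 1.36 and 1.90. Psmb8 was higher by 0.81, 0.69 and 1.71, Psmb9 by 0.86, 0.68 and 1.21, and Nlrc5 by 0.56, 0.18 and 1.58. Psmb10 was at -0.0033, -0.48 and 0.09. Replicate 2 thus lay above replicate 1 for the class I molecule and below it for Psmb8, Psmb9, Psmb10 and Nlrc5, most of all for Psmb10 and Nlrc5. Over B2m and all 11 tested heavy chains, replicate 2 was above replicate 1 in 10 of 12, with list medians of 0.69, 1.53 and 1.95 in replicates 1 to 3. Over the other 7 genes it was above in 3, with medians of 0.56, 0.61 and 1.21. Replicate 3 was highest in 11 of the 12 and in 7 of the 7. This split was noticed in the data and was not tested.

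**Figure D4:**
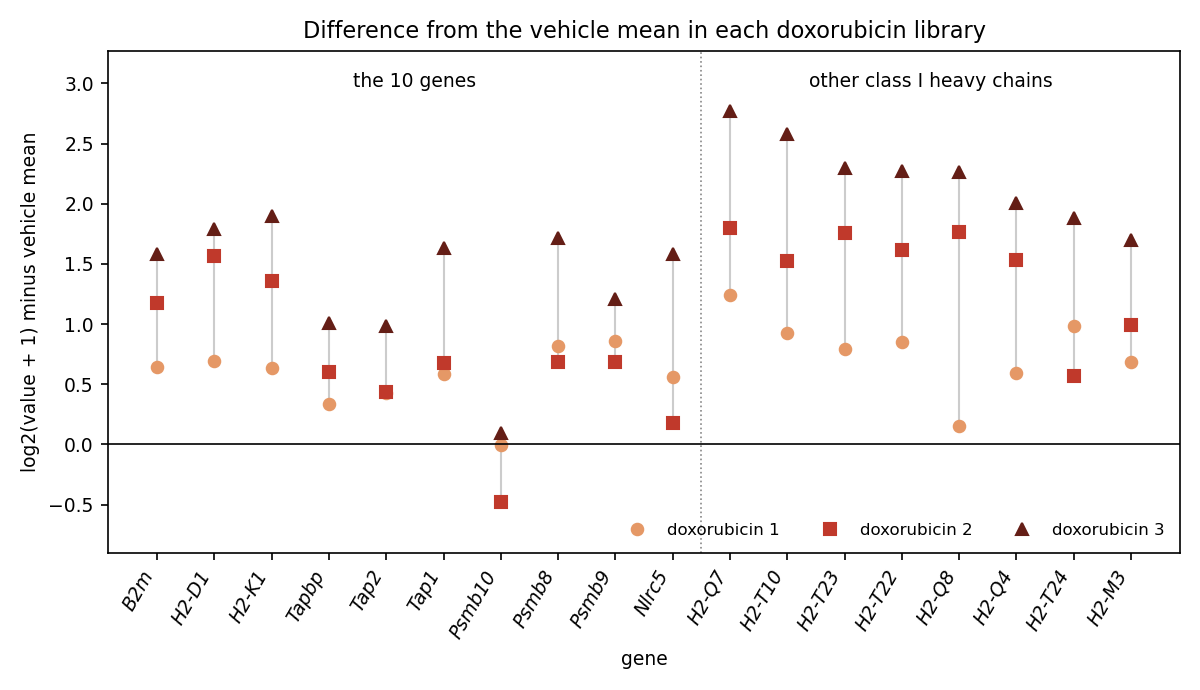
Difference of each doxorubicin library from the vehicle mean on the log2(value + 1) scale for the 10 genes (left of the dotted line) and for 8 other tested class I heavy chains (right; H2-T9, listed at 0 in 5 libraries, is left out). Replicate 3 is highest for all 18 genes, and replicate 2 lies above replicate 1 for B2m and most heavy chains, level with it for Tap2, and below it for Psmb8, Psmb9, Psmb10, Nlrc5 and H2-T24.

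The 10 genes were also compared within each sex. Among the libraries with Xist (1 vehicle, 2 doxorubicin) all 10 genes were higher in doxorubicin, with a median of 1.22. Among those with Y-linked transcripts (2 vehicle, 1 doxorubicin) 9 of 10 were higher, with a median of 0.56, and Psmb10 was at -0.48. H2-D1 was higher by 1.39 and 1.49 in the respective classes, and Nlrc5 by 1.21 and 0.11. The Y-linked doxorubicin library was replicate 2, and replicates 1 and 3 carried Xist. Differences between the classes therefore cannot be told apart from differences between replicates. With 1 library in an arm, no test within a class was made.

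On GRCm38.p6, Tapbp lies at chr17:33919478-33929290, near H2-K1, and Psmb10 and Nlrc5 lie on chromosome 8, at chr8:105935728-105938392 and chr8:94434335-94527272. Of the genes, 4 lie together, within 34292 bases of chromosome 17 (chr17:34182030-34216321, GRCm38.p6), in the order Psmb9, Tap1, Psmb8 and Tap2. All 4 were higher without overlap. On the side of Psmb9 the nearest tested genes were the class II genes H2-DMb1 and H2-DMa, with overlapping groups and log2 fold changes of 0.34 and -0.31. On the side of Tap2 the next were the class II genes H2-Ab1, H2-Aa and H2-Eb1, with overlapping groups and -0.37, -0.65 and -0.54. The first genes beyond these with separate groups were Brd2 at 0.41 and Notch4 at 0.87. From H2-K1 to H2-D1, 57 genes were tested and 31.6% were higher without overlap. With the listed class I genes and the 10 genes left out, 12 of 51, or 23.5%, were higher, against 17.5% of the 606 tested on the whole chromosome.

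The 5 genes outside the set named here were closest to its mean profile over the 6 libraries, by root mean square distance on the log2 scale among 8217 genes with a mean of at least 100. They were Tek (0.0647), Cybc1 (0.0738), C130074G19Rik (0.0739), Robo4 (0.0747) and Pnpla6 (0.0752). Tek had 1022, 1012 and 858 in vehicle and 1456, 1605 and 2234 in doxorubicin replicates 1 to 3. Of the 10 genes themselves Tap1 lay nearest to that mean profile (0.133) and Psmb10 farthest (0.740). All these points share the same 6 libraries, and Tek also belongs to the endothelial markers.

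The libraries were bulk RNA, in which fewer cells of a type and less RNA per cell cannot be told apart. Markers of some other cell types, though not of all, moved with the 10 genes. Macrophage markers were higher without overlap in 9 of 10 tested, beside 19.2% of all tested genes. Their list medians were 0.64, 1.31 and 2.56 above the vehicle mean in doxorubicin replicates 1 to 3. Their summed values were 2489 to 2727 in vehicle and 4149, 6801 and 15479 in doxorubicin. Endothelial markers were higher without overlap in 6 of 10, and in 9 with equal totals, where 36.7% of all tested genes were. Their medians were 0.60, 0.66 and 0.94, and their sums 34203 to 45091 in vehicle and 51519 to 72628 in doxorubicin. Cd36, which overlapped between groups, was the largest part of the sum in every library. Kdr also overlapped, with 4340, 4319 and 3448 in vehicle and 5139, 2159 and 3400 in doxorubicin replicates 1 to 3. Neutrophil markers summed to between 10.5 and 21.7 in vehicle and to 55.0, 563 and 419 in doxorubicin, with Ly6g listed at 0 in vehicle and at most 1.48. Fibroblast markers were higher without overlap in 3 of 8 and mural markers in 0 of 6, beside 19.2% of all tested genes. The mural median log2 fold change was -0.09.
Replicate 3 had the highest macrophage and endothelial medians, and it was the highest library for all 10 genes. Without doxorubicin replicate 1, limma called 9 macrophage and 5 endothelial markers higher and 8 cardiomyocyte markers lower. Of the 12477 tested genes it then called 2409 higher and 2718 lower. Cardiomyocyte markers were present at high levels in every library and lower without overlap in 7 of 10 (22.6% of all tested genes were), with medians of -0.43, -1.85 and -2.12. Under quantile normalization 1 of the 10 was lower without overlap, beside 2700 of the 12477 tested genes. Of the 10, 2 were then above 0, and the median log2 fold change was -0.70 in place of -1.41. The part of these markers in the differences of the 10 genes was not tested.
Class II markers, of cells that present antigen to CD4+ T cells, had another order of the libraries. H2-Aa had 367, 367 and 327 in vehicle and 544, 102 and 204 in doxorubicin replicates 1 to 3. All 4 tested class II markers overlapped between groups, with medians of 0.62, -1.31 and -0.54. Doxorubicin replicate 1 was the highest in class II, where it was the lowest of its group for B2m, H2-D1 and H2-K1. T cell markers summed to between 10.8 and 62.3 in vehicle and to 87.9, 15.7 and 25.2 in doxorubicin, NK and cytotoxic markers to at most 26.2 and B cell markers to at most 42.9, each maximum being in doxorubicin replicate 1.

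**Figure D5:**
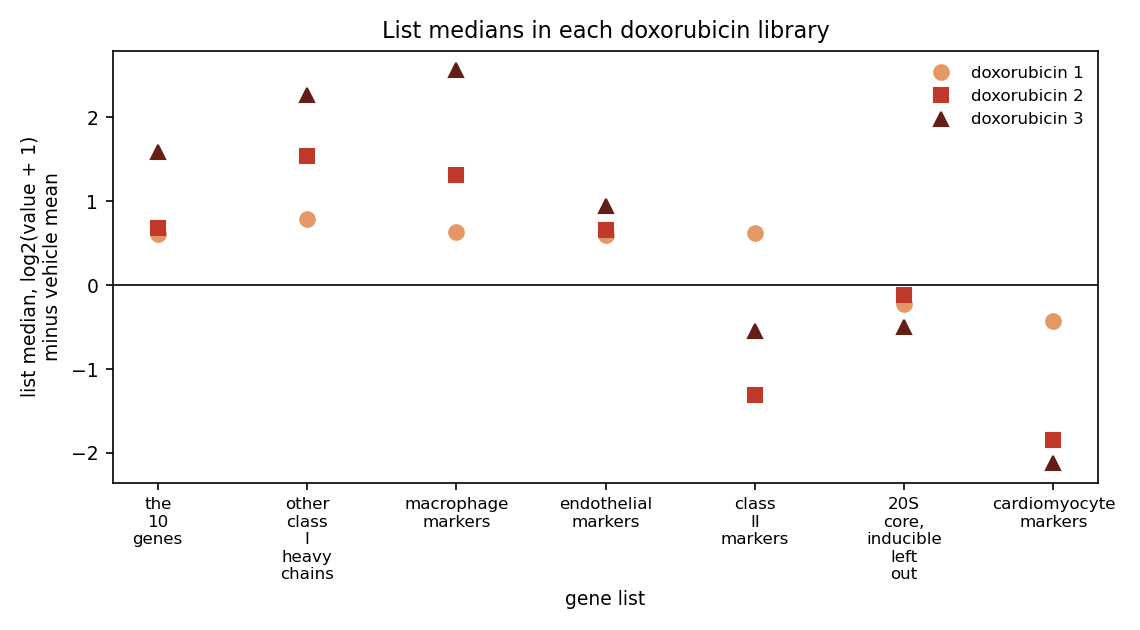
Median over each gene list of the difference from the vehicle mean, log2(value + 1) scale, in each doxorubicin library. The 10 genes, other class I heavy chains, macrophage and endothelial markers are above 0 in all 3 libraries, class II markers only in replicate 1, and the 14 core subunits of the 20S proteasome (inducible ones left out) and cardiomyocyte markers are below 0 in all 3.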

How the data were processed

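Alignment was by STAR to mm10 with RefSeq genes in BaseSpace applications, per the labels, and the submitters' processing notes list STAR 2.6.1a and Salmon without a role. The counting, the strand setting, the normalization and any filters were not given in the sources used here. What was deposited is a non-negative signal, a normalized and fractional read count for each gene in 1 column per library, with 0 columns left out.

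Values were used as deposited. Genes averaging at least 10 over 6 libraries were tested as log2(value + 1), which understates changes of low genes, with limma 3.58.1 in R 4.3.3 (empirical Bayes with a mean-dependent prior, two-sided, Benjamini-Hochberg over all tested genes, threshold 0.05). The fit was tested on simulated data in which both groups had the spread of the vehicle libraries. That test does not cover the wider spread that the 10 genes had among doxorubicin libraries. SD is over 3 libraries. Groups "do not overlap" when every value of 1 group exceeds every value of the other. Ratios were tested by exact permutation of libraries. Levels per kilobase used principal transcript lengths of GENCODE M21. Coordinates and promoters came from RefSeq tables of GRCm38.p6 and count from 1. Figures were drawn with matplotlib 3.10.9.

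The genes, lists and tests were chosen with earlier results of these data known. From each list the genes with the largest and smallest fold change were named, with a preset group: Psmb5, Psmb6, Psmb7, Psme1, Psme2, Psme3, Calr, Canx, Pdia3, Erap1, H2-T23, H2-Q4, H2-M3, Irf1 and Rfx5, with 1 more gene that is not reported here. Nfya, H2-T24, Brd2, Notch4 and the other neighbours of Psmb9 and Tap2, and marker genes named singly were chosen after their values were seen. The nearest profiles were the 5 of smallest distance. Alternatives were pseudocount, filter, scaling, moderation, library weights, sex class as a covariate, a replicate block, the threshold and leaving out each library.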

Additional observations from a re-analysis of the deposited data

How the results depend on the processing

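Genes called at an adjusted p of 0.05 in limma numbered 0 higher and 0 lower as reported and under the pseudocounts, filters, scalings, moderation settings and sex covariate tried, with 4485 at an unadjusted p under 0.05 as reported and 3919 (minimum mean of 50) to 4936 (no filter) under those alternatives. Library weights, in which doxorubicin replicate 1 weighed 0.277, called 1954 higher and 2318 lower, with 8 of the 10 genes. A threshold of 0.10 called 1383 higher and 1639 lower, again with 8. Leaving out 1 library each gave 0 to 2409 genes higher, 0 to 2718 lower and 0 to 8 of the 10, the highest without doxorubicin replicate 1; without doxorubicin replicate 2, 1 gene was called lower. The replicate numbers did not pair the libraries (correlations of same-numbered deviations -0.128, 0.0331 and -0.0928), and with a replicate block 0 genes were called and the smallest adjusted p was 0.115.

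Log2 fold changes that turned their sign, all of genes not called with all libraries, did so with equal totals for Psmb10 (0.17), Psme2 (0.27), Psme3 (0.025), Erap1 (0.20), Rfx5 (0.11), Mr1 (0.14), Psma5 (0.27) and Pomp (0.24), where every gene shifts by nearly the same amount. With quantile normalization Psme2 was at 0.014 and Psma5 at 0.0072. With library weights Psma5 was at 0.15 and Pomp at 0.030, and with the sex covariate at 0.074 and 0.035. Leaving out 1 library gave ranges of -0.24 to 0.044 for Psmb10, -0.13 to 0.089 for Psme2, -0.041 to 0.099 for Pdia3, -0.26 to 0.11 for Erap1, -0.21 to 0.083 for Psma5 and -0.19 to 0.0072 for Pomp. The cause of the other turns was not tested. The ratio differences stayed above 0 in each setting tried, from 1.07 to 1.86 for Psmb8, 1.02 to 1.48 for Psmb9 and 0.37 to 0.78 for Psmb10. Depth limits Nlrc5 most, at about 49 reads in its lowest library.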
